A study of Mus musculus with 4 samples.

Results

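Steroid hormone and estrogen-related receptors are the proteins through which cells read estrogens, progesterone, glucocorticoids and mineralocorticoids, together with 3 orphan relatives of the estrogen receptors. Their genes were examined for open chromatin in visceral fat of CD-1 mice. The set held 9 of 26180 genes with curated RefSeq transcripts. They were the estrogen receptors Esr1, Esr2 and Gper1, the estrogen-related receptors Esrra, Esrrb and Esrrg, the progesterone receptor Pgr, the glucocorticoid receptor Nr3c1 and the mineralocorticoid receptor Nr3c2. The rule that chose them names the genes and uses no measured value. Their 24 curated transcripts started at 18 of 31603 distinct start sites. A promoter was taken as 500 bp either side of a start site. A locus ran from 20 kb upstream of the most upstream start site to the end of the gene. All coordinates are on mm10 (GRCm38).

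Most of these proteins are nuclear receptors, transcription factors that bind DNA response elements and recruit coactivators or corepressors. Esr1 and Esr2 encode estrogen receptors alpha and beta, whereas Gper1 encodes a G protein-coupled receptor of the cell membrane. The estrogen-related receptors bind no natural estrogen and are best known for driving genes of mitochondrial energy metabolism, and ERR gamma, the product of Esrrg, is a known binding partner of bisphenol A (BPA). In fat, estrogen receptor alpha restrains visceral fat mass, and the glucocorticoid and mineralocorticoid receptors promote adipocyte differentiation.

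ATAC-seq, in which a transposase inserts adapters into accessible DNA, was run on 4 libraries of 50000 nuclei each from visceral adipose tissue of mice 8 weeks old. The 2 Control libraries came from untreated descendants of pregnant CD-1 females given sesame oil, and the 2 BPA libraries from untreated descendants of females given BPA at 50 mg/kg. Injections were daily and intraperitoneal, on embryonic days 7.5 to 13.5. CD-1 is an outbred stock, and lines were bred without sibling mating. No genotype or transgene is named for either group. The paper proposes that variants between CD-1 mice can change transcription factor binding. Allele differences between the animals of the groups therefore cannot be told apart from treatment. The labels and the study's methods name different generations of descendants, the list of BPA 2 carries another replicate number than its label, and neither sex nor batch is given, so a batch that follows treatment cannot be told apart from it. In bulk tissue, fewer nuclei of a cell type and less accessibility per nucleus cannot be told apart either.

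The lists held between 72375 peaks (BPA 1) and 98060 peaks (BPA 2). BPA 1 was the shallowest library, with a lowest local background of 1.16 overlapping reads against 2.70 to 3.80 in the others, so a peak missing there alone was not read as a difference. All 7 adipocyte markers had a promoter peak in every library, as did all 4 progenitor and fibroblast markers, and the 3 hepatocyte markers had none. Endothelial markers differed between the groups. Of 6 such genes, 2 had a promoter peak in each Control library and 6 in each BPA library, and their summed fold over background was 7.06 and 9.83 in Control and 50.6 and 45.3 in BPA. Pecam1, Cdh5, Emcn and Tie1 had no promoter peak in either Control library, whereas Tek and Kdr had one in every library. Leukocyte markers had a peak at 2 and 3 of 6 promoters in Control and at 4 of 6 in both BPA libraries. Their summed folds were 8.50 and 14.4 in Control against 20.9 and 21.5 in BPA. Folds were not scaled between libraries, and some lists not chosen by cell type were also higher in BPA. Chaperone promoters summed to 64.9 and 74.9 in Control against 109 and 98.7 in BPA. Promoters of ERR targets summed to 76.2 and 84.2 against 134 and 114, whereas the sums of adipocyte markers overlapped. The leukocyte sums are therefore not read as a difference in cell type. Germ cell markers had a peak at 0 and 1 of 4 promoters in Control and at 1 and 3 in BPA, with a summed fold of 17.8 in BPA 2, where Dazl ranked at 8.27%. Mesothelial markers had a peak at 2 and 1 of 3 promoters in Control and at 1 and 0 in BPA. The part of such cells in the differences between groups given below was not tested. No test between groups was made, because 2 against 2 libraries allow an exact permutation test no two-sided p below 0.33.

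The first question was which receptor promoters were open. Of the 9 genes, 6 and 7 had a promoter peak in Control 1 and Control 2, and 7 and 9 in BPA 1 and BPA 2. The means of 6.5 ± 0.707 (SD, n = 2) in Control and 8 ± 1.41 (SD, n = 2) in BPA differed by about the spread of the BPA libraries. Across all curated genes a promoter peak was found in 56.0% and 55.0% in Control 1 and Control 2, and 57.5% and 61.2% in BPA 1 and BPA 2. Esr1, Esr2, Esrra, Esrrg, Nr3c1 and Nr3c2 had a promoter peak in all 4 libraries, a pattern seen in 51.2% of all curated genes and 57.9% of those with a coding transcript. Esrrb lacked a peak in Control 1, and Gper1 and Pgr had a promoter peak in BPA 2 alone. No receptor gene had promoter peaks in both BPA libraries and neither Control library (2.65% of all genes), in both Control and neither BPA library (0.455%), or in no library at all (36.4%).

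Peaks were then ordered within each library by the authors' −log10 q-value, as a percent of that library's peaks, so that a rank near 0% is a strong peak and 100% the weakest. Over the 6 receptor genes with a promoter peak everywhere, the median rank of the best promoter peak was 17.9% and 22.6% in Control and 20.6% and 12.1% in BPA. The same medians over all 13404 genes with a promoter peak in all 4 libraries were 8.65% and 10.0% in Control and 8.58% and 6.04% in BPA. The median receptor promoter was thus weaker than the median open promoter in each library. Between the groups their medians overlapped. By the median rank over libraries the order was Esrra, Nr3c2, Nr3c1, Esr1, Esrrg and Esr2. Ranks of each neighbouring pair in that order overlapped between libraries, whereas all 4 libraries ranked Esrra ahead of every library's rank for Esr1, Esrrg and Esr2.

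**Figure D1:**
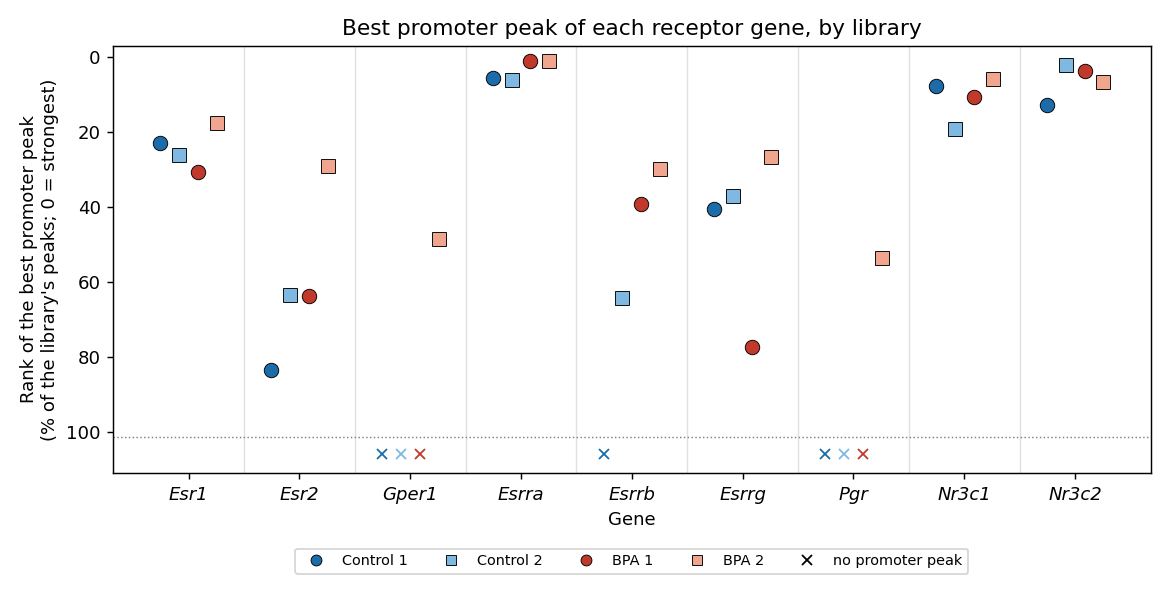
Rank of the best promoter peak of each receptor gene (vertical axis, percent of the library's peaks, 0 at the top being the strongest) in the 2 Control libraries (blue) and the 2 BPA libraries (red), with crosses for no promoter peak. Esrra sits at 5.62% and 6.20% in Control and 1.08% and 1.09% in BPA, and it is the gene with a peak everywhere whose groups do not overlap.

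The Esrra promoter had the best median rank of the set, although Nr3c2 ranked ahead of it in Control 2. ERR alpha, its product, is a regulator of oxidative metabolism that works with the coactivator PGC-1 alpha. Its best promoter peak ranked at 5.62% and 6.20% in Control 1 and Control 2, and at 1.08% and 1.09% in BPA 1 and BPA 2. The fold over local background was 6.07 and 6.59 in Control and 11.3 and 8.62 in BPA, and the pile-up of reads at the summit was 75 and 78 against 194 and 575. Folds and pile-ups were not scaled between libraries, whose median pile-ups over all peaks were 22 and 23 in Control and 19 and 38 in BPA. Folds were also higher in BPA at other promoters, such as those of the chaperones. The mean rank of the Esrra promoter peak was 5.91% ± 0.409 (SD, n = 2) in Control and 1.09% ± 0.00318 (SD, n = 2) in BPA, a gap larger than either spread. Both BPA libraries ranked better than both Control libraries at 40.6% of the 13404 genes, and the reverse held at 18.7%, so 1 of 6 receptor genes in that direction is no more than the background. Ranked by fold in place of −log10 q, the groups overlapped, at 13.7% and 17.1% in Control and 8.65% and 14.3% in BPA.

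Esrra (chr19:6910977-6921808, minus strand) is a short gene, and its locus held 3 accessible regions, all seen in all 4 libraries and all ranked better in both BPA libraries. The promoter region spanned 6920061 to 6922441, and the summit of the best peak lay 134 bp upstream of the start site. Both upstream regions are also promoters of neighbours, so all 3 lay at promoters. Over all loci, 40.5% of 12445 shared regions at promoters ranked better in both BPA libraries and 18.5% in both Control libraries. The region from 6933386 to 6934523 overlaps the promoter of Kcnk4 and ranked at 95.2% and 76.3% in Control against 35.2% and 36.0% in BPA. The region from 6941143 to 6942799 overlaps the promoters of Bad and Gpr137 and ranked at 7.27% and 7.0% in Control against 3.47% and 0.642% in BPA. Ranked by fold, the groups still separated at the Kcnk4 region and overlapped at that of Bad and Gpr137. No region lay within the gene beyond its promoter.

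The Esrra promoter is shown because it had the best median rank of any receptor gene. It is the reference sequence of the 250 bases before the start site, from RefSeq's GRCm38.p6, and not that of the CD-1 mice. Capitals mark GC boxes (GGGCGG on either strand), of which it holds 2. The window of 300 bases around this start site had a G+C content of 66% and 25 CpG dinucleotides, against medians of 52.7% and 7 over 32851 promoters.
Esrra promoter, chr19:6921809-6922058, minus strand: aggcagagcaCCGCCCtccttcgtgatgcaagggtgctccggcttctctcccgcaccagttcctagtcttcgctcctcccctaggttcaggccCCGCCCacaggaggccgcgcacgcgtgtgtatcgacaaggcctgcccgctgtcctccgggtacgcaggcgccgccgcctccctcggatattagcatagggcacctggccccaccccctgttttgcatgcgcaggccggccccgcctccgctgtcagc

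Esr1, which encodes estrogen receptor alpha, had a promoter of middling strength and the richest set of intronic regions. The gene spans 394 kb (chr10:4611989-5005633, plus strand) and has 2 curated start sites, 4611989 and 4710158. At the upstream site the best peak ranked at 22.9% and 26.2% in Control 1 and Control 2, and at 30.6% and 17.6% in BPA 1 and BPA 2. At the downstream site it ranked at 36.9%, 37.8% and 69.5% in Control 1, Control 2 and BPA 2, and BPA 1 had no peak. The upstream promoter ranked better than the downstream promoter in each library that had both. The group means at the upstream site, 24.5% ± 2.34 (SD, n = 2) in Control and 24.1% ± 9.19 (SD, n = 2) in BPA, differed by less than either spread.

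The Esr1 locus held 29 regions, of which 15 had a peak in all 4 libraries. That was 3.63 such regions per 100 kb, against 1.71 over the 9 receptor loci, Esr1 included, and 2.27 over the loci of all curated genes. The short Esrra and Gper1 loci were denser, at 9.73 and 4.06. Counting every region, the Esr1 locus held 7.01 per 100 kb, against 7.60 over the loci of all curated genes. Of the 15, 12 were intronic, and 14 lay within the first 180 kb, upstream flank included. The remaining region lay 332 kb into the gene, in intron 7. Intron 1 held 4 regions, all seen in every library, intron 2 held 4 of which 3 were, and intron 3 held 3 of which 2 were. By median rank the strongest regions outside the promoters were 4620594 and 4671443, described with the group differences, and the intron 4 region 4775247 to 4776852, at 23.9% and 17.6% in Control and 34.3% and 21.5% in BPA. The set also included a region over a coding exon, 4711960 to 4713773, at 77.2% and 36.5% in Control and 65.1% and 36.4% in BPA.

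Of the 15 shared Esr1 regions, 5 ranked better in both Control libraries, 0 in both BPA libraries and 10 overlapped. All 5 were in introns 1 and 2. The largest difference in mean rank was in intron 1 at 4618039 to 4619236, at 8.19% and 36.7% in Control and 97.6% and 62.7% in BPA, followed by 4631911 to 4633800 in the same intron, at 10.8% and 13.5% against 51.7% and 57.5%. The latter lay 20359 bp from the start site and had a pile-up of 46 and 43 in Control and 14 and 27 in BPA. In intron 2, the region 4671443 to 4672618 ranked at 19.7% and 7.57% against 25.7% and 35.6%, and the region 4682876 to 4684112 at 36.9% and 28.8% against 69.5% and 48.1%. The remaining intron 1 region, 4620594 to 4621811, ranked at 18% and 11.7% against 24.2% and 18.7%, the narrowest gap of the 5. Ranked by fold, 3 of the 5 kept the groups apart and the regions at 4620594 and 4671443 overlapped. By fold, 1 Esr1 region also ranked better in both BPA libraries. It lay in intron 3 at 4722352 to 4723348, at 36.8% and 63.8% in Control against 30.7% and 24.9% in BPA. Across all loci, 25.6% of 30045 shared regions ranked better in both Control libraries and 30.0% in both BPA libraries, and outside promoters the shares were 30.6% and 22.6% of 17600. Ranked by −log10 q, the count of 5 of 15 thus lay near the background, while none in the BPA direction lay below it.

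The Esr1 sequences shown are the upstream promoter, whose peak was present everywhere, and an intron 2 region that ranked better in both Control libraries and holds an AGGTCA at its summit. AGGTCA is the core recognised by estrogen receptors and their relatives, and it is in capitals. No searched motif occurs in the 250 bases before the upstream start site.
Esr1 upstream promoter, chr10:4611739-4611988, plus strand: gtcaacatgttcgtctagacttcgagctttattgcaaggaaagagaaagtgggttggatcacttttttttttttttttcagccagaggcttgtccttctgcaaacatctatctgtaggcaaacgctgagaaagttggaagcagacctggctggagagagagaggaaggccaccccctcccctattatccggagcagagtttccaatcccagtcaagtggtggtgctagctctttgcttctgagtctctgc
Esr1 intron 2 summit, chr10:4671991-4672141, plus strand: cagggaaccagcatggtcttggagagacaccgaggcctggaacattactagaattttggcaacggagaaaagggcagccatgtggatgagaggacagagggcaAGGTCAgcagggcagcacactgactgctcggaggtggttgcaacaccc

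**Figure D2:**
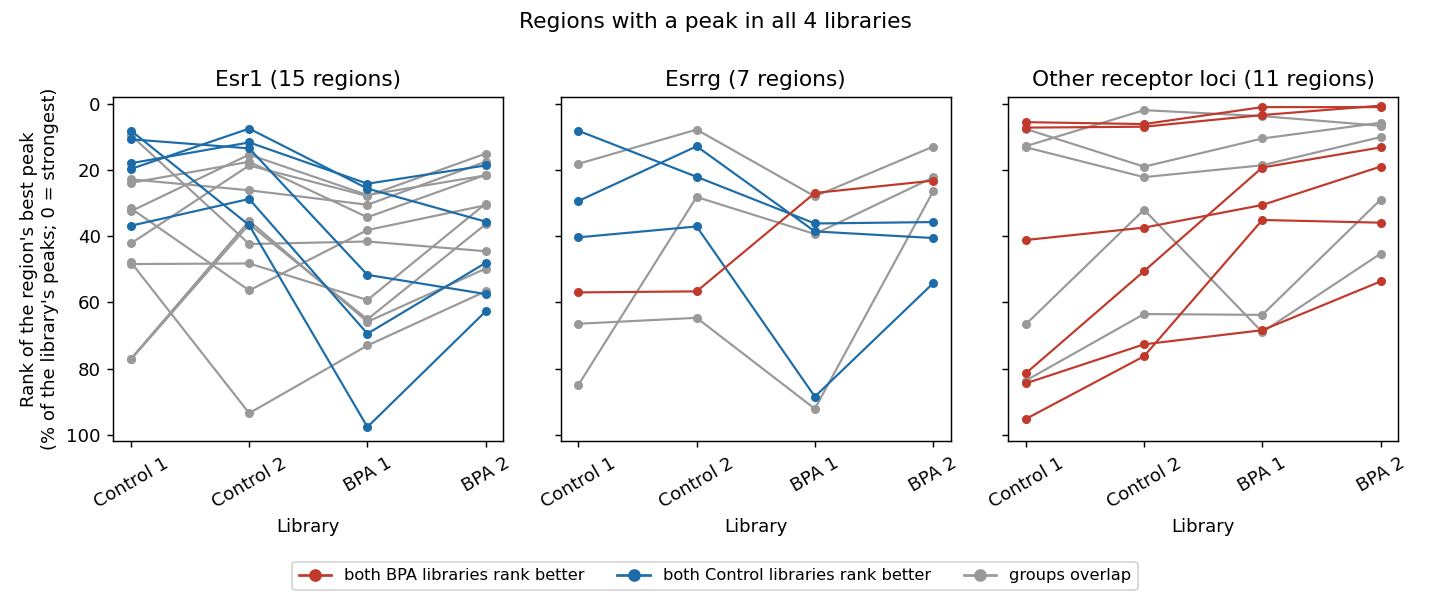
Ranks (vertical axis, percent of the library's peaks, 0 at the top) of the 33 regions with a peak in all 4 libraries, 1 line per region, in Esr1, Esrrg and the other receptor loci. Blue lines rank better in both Control libraries (5 in Esr1, 3 in Esrrg), red lines in both BPA libraries (0 in Esr1, 1 in Esrrg, 6 elsewhere), and grey lines overlap.

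Esr2, which encodes estrogen receptor beta, had a weak promoter and a stronger region near the far end of its upstream flank. The gene lies at chr12:76120419-76177259 on the minus strand with 1 curated start site. Its best promoter peak ranked at 83.6% and 63.5% in Control 1 and Control 2, and at 63.8% and 29.0% in BPA 1 and BPA 2. BPA 2 stood apart from the other libraries, and its rank put the BPA mean at 46.4% ± 24.6 (SD, n = 2) beside a Control mean of 73.6% ± 14.2 (SD, n = 2), with the groups overlapping. With equal numbers of peaks in each list the groups no longer overlapped, at 95.5% and 78.1% in Control and 63.8% and 39.3% in BPA. Moreover, the Control 1 peak was a different interval from that of Control 2. It ended at 76177051, inside the gene, with its summit 565 bp from the start site, whereas that of Control 2 began at 76177113.

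The upstream Esr2 region, 76195464 to 76197092, had its summit 19320 bp from the start site. It ranked at 13.2%, 22.2%, 18.6% and 10.1% in Control 1, Control 2, BPA 1 and BPA 2, better than the promoter in every library. Its pile-up was 45, 37, 40 and 153 in that order. The groups overlapped. The locus held 4 regions in all, and none of them lay in the body of the gene outside the promoter. The bases around the upstream summit are shown since this was the strongest region of the locus. Capitals mark TGTTCT, which is AGAACA on the other strand and the core of glucocorticoid and progesterone response elements.
Esr2 upstream summit, chr12:76196504-76196654, minus strand: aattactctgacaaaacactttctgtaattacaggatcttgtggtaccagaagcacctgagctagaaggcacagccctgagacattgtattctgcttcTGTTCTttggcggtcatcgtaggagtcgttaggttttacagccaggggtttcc

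Gper1, the membrane estrogen receptor, is a short gene (chr5:139423179-139427800, plus strand). Within 500 bp of its start site the only peak was that of BPA 2, which ranked at 48.5% with a fold of 5.40 and a pile-up of 36. BPA 1 had a weaker peak, which began just outside that window and ranked at 92.5% with a pile-up of 9. Neither Control library had a peak in the merged region, 139423118 to 139424356. The region therefore had a peak in both BPA libraries and no Control library, although the promoter as defined did not. The strongest region of the locus lay 13630 bp upstream, from 139408161 to 139410205, and was shared by all libraries at 41.2% and 37.5% in Control and 30.6% and 19% in BPA. Ranked by fold its direction flipped, to 59.6% and 50.6% in Control against 71.3% and 64.4% in BPA.
The Gper1 promoter is shown for contrast with that of Esrra. Its 300-base window had 6 CpG dinucleotides and a G+C content of 48.3%. No searched motif lies wholly in the 250 bases before the start. The 300-base window, which runs 50 bases past the start, holds 1 GC box.
Gper1 promoter, chr5:139422929-139423178, plus strand: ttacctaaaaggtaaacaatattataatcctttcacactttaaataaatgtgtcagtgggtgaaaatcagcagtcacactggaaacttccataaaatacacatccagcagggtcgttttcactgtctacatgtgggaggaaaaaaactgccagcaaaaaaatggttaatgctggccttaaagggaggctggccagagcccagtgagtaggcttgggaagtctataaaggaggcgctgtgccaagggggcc

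Esrrb, which encodes ERR beta and is best known from pluripotent cells, was the receptor locus with no region shared by all libraries. The gene (chr12:86361117-86521628, plus strand) has 2 curated start sites. The upstream site, 86361117, had no peak in any library. At the downstream site, 86421644, Control 1 had no peak, and the best peak ranked at 64.4% in Control 2 and at 39.2% and 30.0% in the BPA libraries. The fold there was 3.64 in Control 2 against 7.54 and 7.66 in BPA. Ranked by fold within each library, the peak was at 65.9% in Control 2 and at 27.6% and 20.5% in BPA. A promoter peak was thus called at the downstream site alone, and transcription from either site was not measured.

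The Esrrb locus held 11 regions. Control 1 had a peak in 1 of them, Control 2 in 4, BPA 1 in 7 and BPA 2 in 10. Over the loci of all genes the shares of regions with a peak were 55.7%, 58.6%, 51.9% and 71.5% in that order. The difference from these shares was not tested. Over all gene loci, 9.74% of regions had a peak in both BPA libraries and neither Control library. In the Esrrb locus 4 regions had this pattern, which was 4 of the 7 such regions over all receptor loci. They lay at 86342002 to 86342916 in the upstream flank, at 86433276 to 86433730 in intron 1, at 86483054 to 86483771 in intron 2 and at 86517370 to 86518968 in intron 6. Their peaks were weak, with ranks from 59.3% to 80.7% in BPA 1 and from 35.4% to 69.9% in BPA 2, and pile-ups of 9 to 12 in BPA 1 and 23 to 40 in BPA 2. The lowest pile-up called in the Control libraries was 9. Outside the promoters the strongest Esrrb region by median rank was in intron 3, from 86498591 to 86499434, at 38.3% in Control 2, 46.5% in BPA 1 and 54.3% in BPA 2. Peaks of endothelial markers were also more frequent in the 2 BPA libraries, and their part in the Esrrb counts was not tested.

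The downstream start site had a peak in 3 libraries and the upstream start site in none, so the 250 bases before each are shown, with the summit of the best-matched BPA region, in intron 1, whose ranks were 59.3% and 56.7%. The 300-base windows of the 2 promoters had 7 CpG dinucleotides each and a G+C content of 60% upstream and 55.3% downstream. AGAACA, in capitals, occurs in the downstream promoter, and the other two sequences hold no searched motif.
Esrrb upstream promoter, chr12:86360867-86361116, plus strand: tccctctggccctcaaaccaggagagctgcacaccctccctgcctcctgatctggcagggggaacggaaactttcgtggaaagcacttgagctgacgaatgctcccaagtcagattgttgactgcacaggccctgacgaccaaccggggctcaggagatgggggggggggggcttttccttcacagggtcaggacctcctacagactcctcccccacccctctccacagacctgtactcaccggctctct
Esrrb downstream promoter, chr12:86421394-86421643, plus strand: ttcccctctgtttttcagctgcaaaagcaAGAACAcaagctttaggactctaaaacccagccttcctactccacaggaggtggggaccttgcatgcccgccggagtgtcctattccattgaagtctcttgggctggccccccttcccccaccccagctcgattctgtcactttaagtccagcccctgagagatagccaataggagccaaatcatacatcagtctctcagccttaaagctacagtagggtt
Esrrb intron 1 summit, chr12:86433432-86433582, plus strand: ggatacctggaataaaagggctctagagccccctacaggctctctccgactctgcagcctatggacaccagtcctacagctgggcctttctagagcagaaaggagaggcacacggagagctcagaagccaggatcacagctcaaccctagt

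Esrrg is the longest of these genes (chr1:187609006-188214885, plus strand, 606 kb) and has 4 curated start sites. Its best promoter peak ranked at 40.4% and 37.1% in Control 1 and Control 2, and at 77.4% and 26.5% in BPA 1 and BPA 2. The start site behind that best peak differed between libraries. In both Control libraries it was the most downstream site, 187997827, at 40.4% and 37.1%, where BPA 1 and BPA 2 ranked at 88.5% and 54.3%. In BPA 1 it was the most upstream site, 187609006, and in BPA 2 the peak shared by the middle sites, 187651758 and 187652241, which ranked at 66.5% and 64.7% in Control and at 92.1% and 26.5% in BPA.

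The most upstream Esrrg start site had a peak in both BPA libraries, at 77.4% and 53.2%, and in neither Control library. It was the single one of the 18 receptor start sites with that pattern. The share of all 31603 start sites with that pattern was not computed. Control 2 had a peak in the same merged region, at 79.4% with a pile-up of 16, more than 500 bp from the start site. The separation at this site thus depends on the width of the window. The most downstream promoter went the other way, with both Control libraries ahead of both BPA libraries, also when ranked by fold (27.4% and 31.9% against 78.8% and 38.6%).

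**Figure D3:**
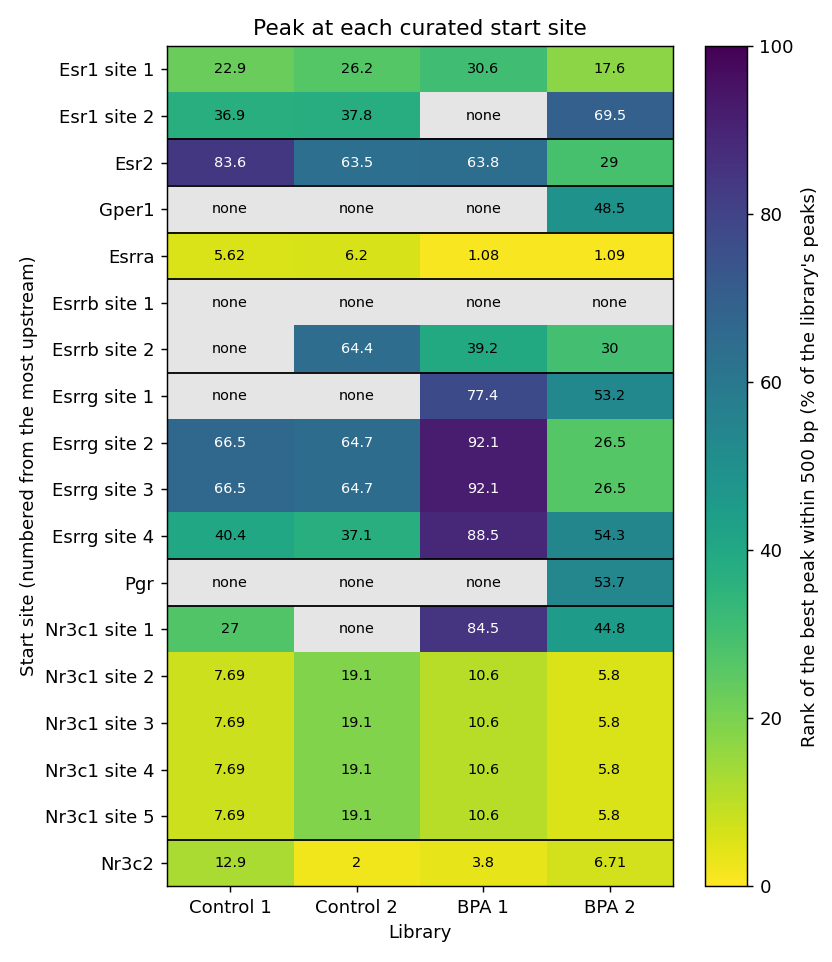
Rank of the best peak within 500 bp of each of the 18 start sites (rows, numbered from the most upstream) in each library (columns), as a percent of the library's peaks, with yellow for strong and dark for weak peaks and grey for no peak. Peaks were present at 13, 13, 14 and 17 start sites in Control 1, Control 2, BPA 1 and BPA 2, and the upstream Esrrb site is the row with no peak in any library.

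Within the Esrrg locus 7 of 24 regions had a peak in all libraries, a density of 1.12 per 100 kb. By median rank the strongest lay in intron 4, from 188117836 to 188118780, at 18.2% and 7.87% in Control and 28.0% and 13% in BPA. Intron 4 held 5 regions, of which 3 were shared by all libraries. Another region in the same intron, 188107700 to 188108566, ranked better in both BPA libraries, at 57% and 56.7% against 27.0% and 23.3%. The intron 3 region 188055605 to 188057202 ranked better in both Control libraries, at 8.24% and 22.1% against 36.2% and 35.8%. So did the intron 1 region 187649851 to 187650686, at 29.4% and 12.9% against 38.6% and 40.6%. These directions were the same when ranked by fold. Over the 7 shared regions of the locus, 1 ranked better in both BPA libraries, 3 in both Control libraries and 3 overlapped, beside 30.0% and 25.6% of shared regions over all loci. The summit of the strongest region is shown, and none of the searched motifs occurs in it.
Esrrg intron 4 summit, chr1:188118244-188118394, plus strand: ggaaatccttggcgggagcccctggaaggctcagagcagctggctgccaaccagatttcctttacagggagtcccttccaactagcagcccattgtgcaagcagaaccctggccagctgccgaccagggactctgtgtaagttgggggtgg

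**Figure D4:**
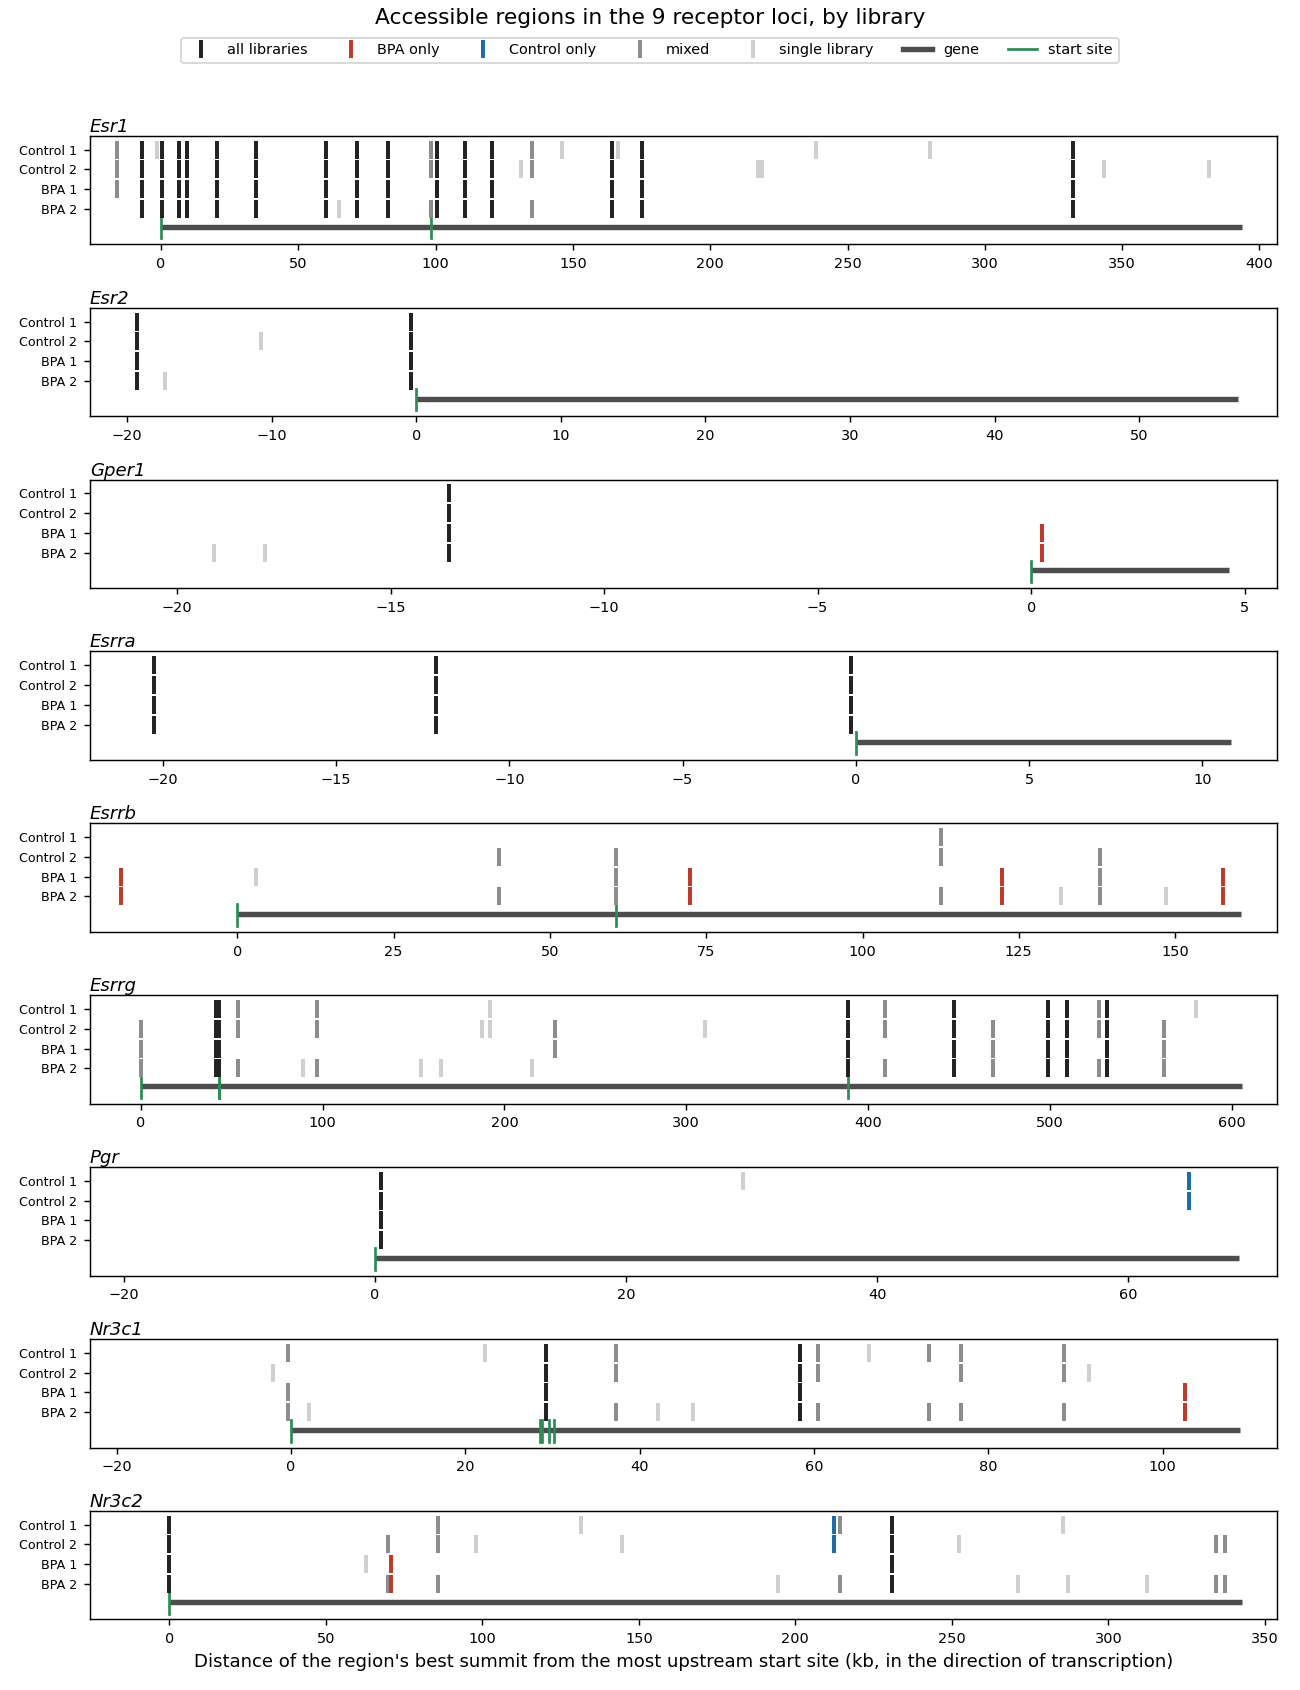
Accessible regions of the 9 receptor loci by library, drawn at the distance of the best summit from the most upstream start site (kb, in the direction of transcription), with the gene as a dark bar and start sites in green. Black ticks are regions with a peak in all 4 libraries, red ticks in both BPA libraries alone and blue ticks in both Control libraries alone, and the Esr1 locus holds 15 black ticks while that of Esrrb holds none.

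Pgr, the progesterone receptor, is a well-known target of estrogen receptor alpha. Its region at the start of the gene (chr9:8900048-8901759, plus strand) had a peak in all 4 libraries, at 84.5% and 72.7% in Control and 68.4% and 53.7% in BPA, with folds of 2.81 and 3.35 against 5.16 and 5.28. Both BPA libraries ranked better, also by fold. The peaks of Control 1, Control 2 and BPA 1 began more than 500 bp downstream of the start site, 8899833. The BPA 2 peak was wider and reached the window from 8900048, which is why that library alone counted as having a Pgr promoter peak. The intron 7 region 8964271 to 8964944 had a peak in both Control libraries, at 82.8% and 34.9%, and in neither BPA library. The locus held 3 regions in 88.8 kb.

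Nr3c1 encodes the glucocorticoid receptor and lies on chromosome 18 from 39410545 to 39519421, on the minus strand. A single peak per library lay over or within 500 bp of 4 of its 5 curated start sites. In Control 1, BPA 1 and BPA 2 it covered all 4 of them, whereas the narrower Control 2 peak, 39489529 to 39490626, covered 39489776 alone. It ranked at 7.69% and 19.1% in Control 1 and Control 2, and at 10.6% and 5.80% in BPA 1 and BPA 2, and the groups overlapped. The summit of the BPA 2 peak, the best ranked, lay 29204 bp downstream of the most upstream start site, and the summits differed between libraries. The most upstream start site was weaker, at 27.0% in Control 1, 84.5% in BPA 1 and 44.8% in BPA 2, with no peak in Control 2. The downstream cluster ranked better than the upstream site in each library that had both. Ranked by fold this held in BPA 1 alone, and the upstream site was slightly ahead in Control 1 (33.1% against 34.3%) and BPA 2 (49.4% against 53.2%). Of the 16 regions of this locus, 9 lay in intron 2, and 1 of those was shared by all libraries. The strongest region outside promoters lay 76916 bp from the most upstream start site in intron 2, at 35.4% and 38.8% in Control and 60.6% in BPA 2. The region in intron 7, 102612 bp from the most upstream start site, had a peak in both BPA libraries, at 66.9% and 41.0%, and in neither Control library.

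Nr3c2, which encodes the mineralocorticoid receptor (chr8:76902330-77245012, plus strand), had the second strongest promoter of the set by its median rank. Its best promoter peak ranked at 12.9% and 2.00% in Control 1 and Control 2, and at 3.80% and 6.71% in BPA 1 and BPA 2. The Control libraries enclosed both BPA libraries. The merged promoter region was 3932 bp wide, from 76898898 to 76902829, and also overlapped the promoter of the non-coding gene Gm10649. A region in intron 3, 77132719 to 77133957, lay 230812 bp from the start site and ranked at 81.4% and 50.6% in Control and 19.3% and 13.3% in BPA. Its fold was 3.34 and 4.89 against 11.0 and 12.0, and its pile-up 12 and 18 against 31 and 94. Among the shared regions outside promoters that ranked better in both BPA libraries, this had the largest difference in mean rank, and the groups stayed apart when ranked by fold (69.5% and 38.1% against 9.39% and 3.41%). In intron 2 the region 76973084 to 76973552 had a peak in both BPA libraries alone, at 64.3% and 75.8%, and in intron 3 the region 77114424 to 77115064 had one in both Control libraries alone, at 77.4% and 73.1%.

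The Nr3c2 promoter and the summit of the intron 3 region are shown as the promoter with the second best median rank and the shared intronic region that differed most in the BPA direction. The promoter holds 3 GC boxes, in capitals, and its 300-base window had a G+C content of 65.7%. The intronic summit holds none of the searched motifs.
Nr3c2 promoter, chr8:76902080-76902329, plus strand: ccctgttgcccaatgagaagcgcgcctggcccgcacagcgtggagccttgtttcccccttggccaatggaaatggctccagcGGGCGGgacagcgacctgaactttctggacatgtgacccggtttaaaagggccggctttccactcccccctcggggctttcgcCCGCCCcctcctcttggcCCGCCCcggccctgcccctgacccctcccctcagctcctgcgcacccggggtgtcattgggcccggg
Nr3c2 intron 3 summit, chr8:77133067-77133217, plus strand: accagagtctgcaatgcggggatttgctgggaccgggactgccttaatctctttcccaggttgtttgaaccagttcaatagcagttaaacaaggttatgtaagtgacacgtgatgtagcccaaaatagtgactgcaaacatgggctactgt

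Over all 9 loci, 113 of the 100562 regions in gene loci were found. A peak was found in 63 and 72 of them in Control 1 and Control 2, and in 50 and 81 in BPA 1 and BPA 2. The shares were 55.8% and 63.7% in Control and 44.2% and 71.7% in BPA, against 55.7%, 58.6%, 51.9% and 71.5% of regions over all loci. A peak in all 4 libraries was seen in 33 regions (29.2%), against 29.9% of regions in the loci of all genes. A peak in both BPA libraries and neither Control library was seen in 7 (6.19%, against 9.74%), and the reverse in 2 (1.77%, against 4.69%). A single library alone had a peak in 45 (39.8%, against 35.7%). Both shares of regions seen in 1 group alone were below those of gene loci at large, on counts of 7 and 2, and the difference was not tested. Of the 45 regions of a single library, 17 were from BPA 2 and 2 from BPA 1, against 13947 and 2296 of 35867 over all loci, and their median rank was 84.6% against 34.0% for the shared regions. Of 19 regions with a peak in 3 libraries, 12 lacked it in BPA 1, against 33.3% of such regions over all loci, and the difference was not tested. By position, 8 of 13 promoter regions, 5 of 13 upstream regions and 19 of 86 intronic regions were shared by all libraries. The same shares by position over all gene loci were not computed, so this contrast is not read as particular to the receptor loci.

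**Figure D5:**
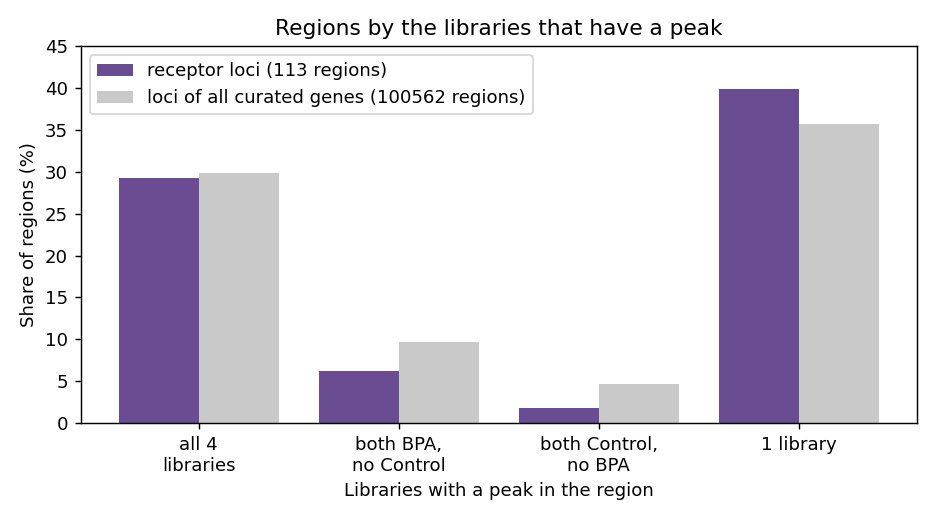
Share of regions (percent, bars from 0) in the 9 receptor loci (purple, 113 regions) and in the loci of all curated genes (grey, 100562 regions) by the libraries that had a peak. Shares in all 4 libraries are 29.2% and 29.9%, and both groups' own regions are the shorter bars in the receptor loci.

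Ranks of the 33 shared regions were set side by side between the groups. In 7 both BPA libraries ranked better, in 8 both Control libraries did, and 18 overlapped. Over all loci the shares in these directions were 30.0% and 25.6%. Outside promoters of any gene the counts were 3 and 7 of 23, and 5 of those 7 were in Esr1. The shares outside promoters over all loci were 22.6% and 30.6%. Ranked by fold, the counts over the 33 shared regions were 5 and 7, against 27.8% and 23.7% over all loci. The differences from these shares were not tested. The regions that favoured BPA were at Esrra (3), Gper1, Esrrg, Pgr and Nr3c2 (1 each), and those that favoured Control were at Esr1 (5) and Esrrg (3).

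Sequence was compared with all windows of the same kind. Both strands were searched for AGGTCA, for TCAAGGTCA (the element of estrogen-related receptors), for the palindrome AGGTCANNNTGACCT (the estrogen response element), for AGGTCANAGGTCA, for AGAACA, for its palindrome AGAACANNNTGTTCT, for TGANTCA (the AP-1 site) and for GGGCGG. The longer elements contain the shorter ones. RefSeq's promoter table held 13 windows of 300 bases for 8 of the 9 genes. AGGTCA occurred in 0 of the 13, against 16.3% of 32851 promoters, AGAACA in 1 against 19%, TGANTCA in 1 against 7.81% and GGGCGG in 6 against 35.7%. In the 300 bases around the best summit of each region, AGGTCA occurred in 24 of 113 regions (21.2%), against 18.8% of the 100562 regions in gene loci. AGAACA occurred in 31 (27.4%, against 25.5%), TGANTCA in 20 (17.7%, against 12.9%) and GGGCGG in 12 (10.6%, against 15.4%). None of the windows held TCAAGGTCA, either palindrome or AGGTCANAGGTCA, which were found in 0.532%, 0.0109%, 0.0398% and 0.0786% of all regions. Over whole regions TCAAGGTCA occurred in 2, the Esrra promoter region and the Esrrg intron 3 region at 188055605. Its share over the whole regions of all loci was not computed, and most whole regions are longer than 300 bases. The count is therefore not read as particular to the receptor loci. The median G+C content of whole receptor regions was 45.6%.

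The wider pathway was checked through 71 other genes, of which 70 had curated start sites, among them chaperones, coactivators, corepressors, enzymes of steroid metabolism and target genes. A promoter peak in all 4 libraries was seen for 55, in both BPA libraries alone for 1, in both Control libraries alone for 1, and in none for 9. Over all curated genes these patterns were seen in 51.2%, 2.65%, 0.455% and 36.4%, and the lists below are to be read against them. The gene open in BPA alone was Greb1, an estrogen-induced coactivator of estrogen receptor alpha, at 99.9% and 55.1%. The gene open in Control alone was Star, which moves cholesterol into mitochondria for steroid synthesis, at 38.6% and 71.3%. All 10 chaperones had a peak in every library, as did all 10 targets of the glucocorticoid and mineralocorticoid receptors and all 10 ERR targets, Esrra among them. Of 11 coactivators 10 did, and Ppargc1a, the gene of PGC-1 alpha, had a promoter peak at 10.1% and 4.32% in Control and 11.2% in BPA 2 and none in BPA 1. Of 14 enzymes of steroid metabolism 6 did, and Cyp19a1, the aromatase that makes estrogens, had none in any library. Of the 55 genes open everywhere, 27 ranked better in both BPA libraries and 8 in both Control libraries, a split that leaned as that of all genes did (40.6% and 18.7%).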

How the data were processed

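ATAC-seq was measured in 4 libraries of mouse visceral adipose tissue, 2 Control and 2 BPA, each with its own peak list. Per the submitters' processing notes and the study's methods, the authors trimmed reads with Trim Galore, aligned them to mm10 with Bowtie2 2.3.5.1, removed duplicates, processed alignments with SAMtools and called peaks in each library separately with MACS2 2.2.7.1. No read totals were used here, so depth is known only through the background and pile-up that each list implies. The deposited lists give for each peak a fold over local background, which is a ratio, and the −log10 p-value and −log10 q-value of the peak. The lowest deposited −log10 q-value of each list lay just above the threshold of 0.05. The integer score column was not used. Whether the authors moved reads to the transposase cut sites before peak calling is not given in the sources used here.

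Here, the summit pile-up and background of each peak were solved from its fold and p-value, taking the p-value as a Poisson tail with background from 0.5 upward. A whole pile-up within a relative error of 1e-04 was found for 100% of peaks. Peaks of all libraries that touched or overlapped were merged into regions. A promoter was 500 bp either side of a curated RefSeq start site, a promoter peak any peak overlapping it, and a locus ran from 20 kb upstream of the first start site to the gene end. Strength was the rank of the −log10 q-value within its library, and groups were called apart where both libraries of one ranked ahead of both of the other. No test between groups was made, because an exact permutation test of 2 against 2 libraries cannot reach the usual threshold. Alternatives were ranking by fold, equal numbers of peaks, a stricter q-value, the best 20000 peaks, other promoter windows, start sites of coding transcripts alone, loci without the upstream flank, summits in place of overlaps, peaks overlapping between replicates, and leaving out each library. All 9 receptor genes were named. In each locus the regions named were those at promoters, those of 1 group alone, the strongest outside promoters (up to 3 for the locus with most regions) and, chosen after their values were seen, shared regions whose groups did not overlap. Pathway genes were counted, and named where 1 group alone had a promoter peak. Ppargc1a and Cyp19a1 were also named after their values were seen. The receptors, pathway genes and markers were chosen with earlier results of these data known. Motifs were searched with Python 3.11.15, numpy 2.4.6 and pandas 2.3.3, and scipy 1.17.1 gave the Poisson tail. On simulated data the pile-up was recovered for 100.0% of 40000 peaks, and 10 of 10 checks of regions and promoter peaks on 30000 sites were without error.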

Additional observations from a re-analysis of the deposited data

How the results depend on the processing

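No paired analysis was possible because no test compared the groups, and replicate numbers shared by the groups name no common animal or batch. Of 125 alternative values, 93 moved by less than the spread between libraries or, for counts, stayed within 1.5 times, and 32 were labelled as moved further. Among the 32, the median G+C content was given that label in advance, with neither limit applied. The difference of Esrra, whose groups did not overlap, kept its sign in each alternative. Among promoters whose groups overlapped, the difference in mean rank changed sign without Control 2 and without BPA 2 for Esr1, without BPA 1 for Esrrg (from 13.2 to -12.2 percentage points), without Control 1 for Nr3c2, and without Control 2 or by fold for Nr3c1 (from -5.20 to 7.59 by fold). With the best 20000 peaks of each list, the mean number of receptor genes with a promoter peak was 3.5 in both groups, start sites 6.5 in both, regions in all libraries 6, in BPA alone 1 and in a single library 7. With −log10 q of at least 5, regions in all libraries numbered 21, in Control alone 1 and in a single library 28. Ranked by fold, the median promoter rank was 36.4% in Control and 36.1% in BPA, and with equal numbers of peaks it was 24.1% in Control. Joining peaks by summit gave 5 regions in Control alone and 71 in a single library. Peaks found in both replicates gave 4 regions in BPA alone and 0 in Control alone. Leaving out 1 library, regions in BPA alone ranged from 8 to 24, in Control alone from 3 to 17 and in a single library from 21 to 34, since the reduced group then needs 1 library, and the highest BPA count came without BPA 1. Calls of promoter rank also turned on 1 library: without BPA 1, Esr1, Esr2, Esrrg and Nr3c1 ranked better in BPA, without BPA 2 Esr1 and Esrrg ranked better in Control, without Control 1 Esrrb and Nr3c1 ranked better in BPA and Nr3c2 in Control, and without Control 2 Esr2 and Nr3c2 ranked better in BPA, while Esrra ranked better in BPA each time. Over whole regions in place of 300 bases at the summit, the median G+C content was 45.6% against 46.7%, and AGGTCA occurred in 51 regions against 24 and AGAACA in 53 against 31, since whole regions are longer. With a promoter of 1000 bp either side, every library had a Pgr promoter peak and both BPA libraries one of Gper1. Ranking regions by fold was chosen after the data were seen.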
